A study of Homo sapiens with 16 samples.

Results

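The response described here is that of HCC827, a human lung adenocarcinoma line with an activating EGFR mutation and many copies of the EGFR gene, to MYCi975 and TMP195 given together. It comprised the 4 libraries labelled HCC827, out of 16 in the series, chosen by their labels alone and described across all genes. The cells grew in RPMI with 10% serum and, starting 1 day after plating, were kept for 48 hours in DMSO vehicle or in both agents at once, MYCi975 at 5 µM and TMP195 at 25 µM, with 2 libraries for each treatment. The series calls HCC827 and H441 non-responsive and H460 and H1703 responsive, and each of those other 3 lines was treated alike with 2 libraries per treatment. The single agents were not analysed here, so the share of either agent in any change cannot be told apart. The labels do not say that the replicate libraries came from separate cultures, so p-values measure only the spread between libraries, which may be technical.

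MYCi975 is a small molecule that binds the transcription factor MYC, which drives genes of ribosome production, nucleotide synthesis and cell division. TMP195 occupies the catalytic pocket of HDAC4, HDAC5, HDAC7 and HDAC9, the histone deacetylases of class IIa, which act with MEF2 transcription factors as gene repressors. In cells short of amino acids or under other stresses, phosphorylation of the initiation factor eIF2 lowers protein synthesis in general while raising translation of the transcription factor ATF4, and ATF4 then switches on amino acid transporters, amino acid synthesis enzymes and tRNA synthetases. Cholesterol synthesis is set by SREBP2, which is released when sterols in the endoplasmic reticulum are low.

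The 4 libraries held 8759228 to 11024797 reads in the listed genes, and replicates correlated at 0.978 with vehicle and 0.976 with the combination across genes, which are not independent replicates. Values called normalised reads are reads recovered from the deposited table, divided by a size factor per library. A change is the combination mean less the vehicle mean, in log2 as deposited, each mean over 2 libraries, and SE is its standard error from limma. The words "rose" and "fell" mark genes whose adjusted p was under 0.05. EGFR stood at 131565 to 136024 normalised reads with vehicle, against at most 5337 in any library of the other lines, and the epithelial genes KRT7, KRT19 and EPCAM were well above background in all 4 libraries. Of 16 marker genes of blood, vessel, fibroblast and nerve cells, 9 were in the table and summed to 108 and 115 normalised reads with vehicle and 69.4 and 82.1 with the combination. COL1A1, a fibroblast collagen, carried most of the sum with vehicle and fell from 63.0 and 68.9 to 16.5 and 27.7 (log2 -1.51, limma adjusted p = 0.0389). It was not called with the replicate number as a block (adjusted p = 0.0555) or with neither trend nor robust settings of limma (adjusted p = 0.136). Its change ranged from -1.18 to -1.84 with 1 HCC827 library left out. The monocyte markers differed: CD14 was at 0 in all 4 libraries, while CD68, a lysosomal protein also made outside monocytes, stood at 6.06 and 6.08 with vehicle and 24.7 and 22.1 with the combination, a change of 1.60 that did not pass. The part of these markers in other results was not tested, and the other 7 markers were not analysed here. Ribosomal RNA of the mitochondrion (MT-RNR2) took 19.65 and 20.96% of reads with vehicle and 17.14 and 15.66% with the combination, and the part of this shift in other results was not tested. In bulk RNA, fewer cells in a state and less RNA per cell cannot be told apart.

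Of 23968 genes tested, 2378 differed between the combination and vehicle, which is 9.92%. Among them 1060 rose (4.42%) and 1318 fell (5.5%), and 294 of the risen and 224 of the fallen genes moved by at least 1 on the log2 scale. The median change over all genes was 0.00. The count depended on the libraries. It was 1013 without combination replicate 2, 1214 without vehicle replicate 1, 1403 without vehicle replicate 2 and 1826 without combination replicate 1.

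**Figure D1:**
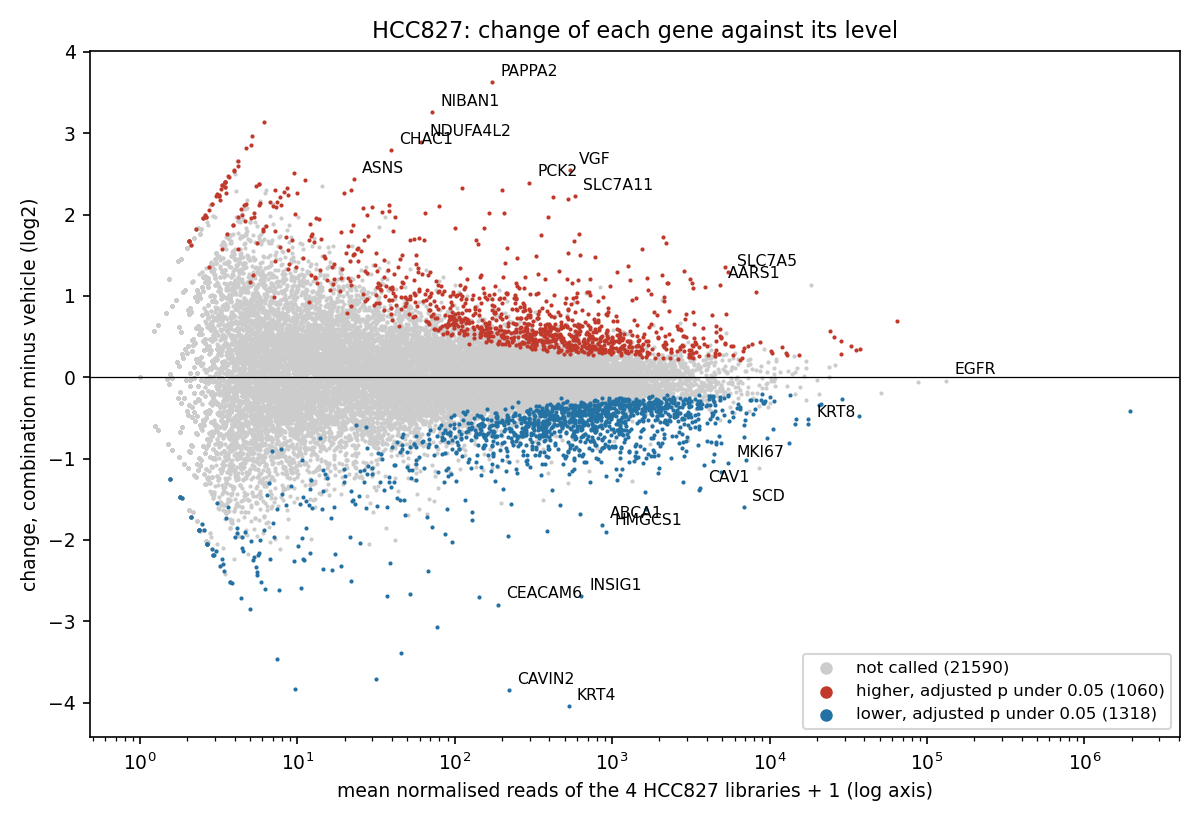
Change in HCC827 (log2, vertical axis) of each of the 23968 genes tested against its mean normalised reads over the 4 libraries plus 1 (horizontal log axis), with the 1060 genes that rose in red and the 1318 that fell in blue. PAPPA2 (3.63) and NIBAN1 (3.26) lie near the top, KRT4 (-4.04) and CAVIN2 (-3.85) near the bottom, and EGFR lies far to the right near 0.

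Among the 47 gene lists examined, the targets of ATF4 and the integrated stress response had the highest median change and the most members that rose. Of 38 members tested, 31 rose and 0 fell, with a median change of 1.42 against 0.00 for all genes. The cystine transporter gene SLC7A11 (chromosome 4, 138164097 to 138242349, minus strand, GRCh38) had 217 and 185 normalised reads with vehicle and 903 and 1003 with the combination. Both combination libraries lay far above both vehicle libraries, a 4.74-fold rise (log2 2.23, SE 0.09, adjusted p = 1.84e-11). CHAC1, an enzyme that degrades glutathione, went from 10.9 and 5.06 to 77.6 and 59.0 normalised reads, and the asparagine synthetase gene ASNS from 4.85 and 5.06 to 47.1 and 30.4. Neither gene's groups overlapped, and the changes were 2.80 (SE 0.40, adjusted p = 0.000111) and 2.44 (SE 0.36, adjusted p = 0.000139), both resting on few vehicle reads.

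Among the regulators on this list, the ATF4 mRNA itself rose by 0.56 (SE 0.08), from 1598 and 1488 to 2232 and 2320 normalised reads (adjusted p = 7.46e-05). Its partners moved further: CEBPB rose by 1.49 (SE 0.11, adjusted p = 3.44e-08), JDP2 rose by 1.47 (SE 0.17) and CEBPG rose 2.84-fold (adjusted p = 8.3e-08). DDIT3, the stress-induced factor also called CHOP, had 158 and 155 normalised reads with vehicle and 551 and 698 with the combination, a change of 1.97 (SE 0.11, adjusted p = 1.02e-09). The pseudokinase gene TRIB3 rose by 2.21 (SE 0.16), and the mTORC1 inhibitors SESN2 and DDIT4 rose by 2.03 (SE 0.19) and 1.65 (SE 0.12). PPP1R15A, which encodes the subunit that directs a phosphatase to eIF2, rose by 1.37 (SE 0.20, adjusted p = 0.000546). ATF3 rose by 0.88 (SE 0.17, adjusted p = 0.00179), but not without combination replicate 2 (adjusted p = 0.0636). NIBAN1 rose 10.8-fold (log2 3.26, SE 0.23), to 111 and 150.3 normalised reads. The nuclear protein gene NUPR1 changed by 2.32 (SE 0.52, adjusted p = 0.00602), a call that ended without vehicle replicate 1 (adjusted p = 0.066) or combination replicate 2 (adjusted p = 0.0842). The naming rule took at most 4 members per list, and further members, such as CEBPB, CEBPG and JDP2, were picked after their values were seen.

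Many, but not all, enzymes and transporters of amino acids on the same list rose. For serine and glycine, the synthesis gene PHGDH went from 276 and 279 to 923 and 973 normalised reads (log2 1.76, SE 0.23, adjusted p = 3.46e-05) and PSAT1 from 1077 and 874 to 3316 and 3103 (log2 1.72, SE 0.10, adjusted p = 3.16e-09). The mitochondrial one-carbon genes SHMT2 and MTHFD2 rose by 1.02 (SE 0.09) and 0.98 (SE 0.08), and PCK2, the mitochondrial phosphoenolpyruvate carboxykinase, by 2.39 (SE 0.15, adjusted p = 6.07e-09). Every combination library was above every vehicle library for these 5 genes. PSPH, the last enzyme of serine synthesis, did not pass (0.20, SE 0.11), nor did ALDH1L2 of folate metabolism (0.60, SE 0.31) or ALDH18A1 of proline synthesis (0.04, SE 0.09). The large neutral amino acid transporter gene SLC7A5 had 3556 and 2803 normalised reads with vehicle and 7454 and 8076 with the combination (log2 1.30, SE 0.11, adjusted p = 1.54e-07). Its partner chain SLC3A2 rose by 1.07 (SE 0.10), and so did the neutral and cationic amino acid transporters SLC1A5 (1.29, SE 0.09) and SLC7A1 (0.53, SE 0.09). Outside the list, the neutral amino acid transporter SLC1A4 rose by 1.40 (SE 0.13) and the glutamine transporter SLC38A1 by 0.77 (SE 0.08). The related SLC38A2 stood at 3165 and 2857 with vehicle and 3013 and 3040 with the combination, and its groups overlapped (log2 0.01, SE 0.21).

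Of 20 cytosolic aminoacyl-tRNA synthetases, which load tRNAs with their amino acids, 13 rose and 0 fell (median 0.50). WARS1 for tryptophan rose by 1.26 (SE 0.10), SARS1 for serine by 1.21 (SE 0.09), MARS1 for methionine by 1.15 (SE 0.07) and AARS1 for alanine by 1.14 (SE 0.07, adjusted p = 3.21e-09). AARS1 had 3131 and 2881 normalised reads with vehicle and 6249 and 7017 with the combination, with no overlap. GARS1 and CARS1, for glycine and cysteine, rose by 1.10 (SE 0.07) and 0.91 (SE 0.11). XPOT, which exports tRNA from the nucleus, rose by 1.11 (SE 0.08, adjusted p = 3.31e-08). Over all alternatives tried, 27 to 31 members of the ATF4 list and 12 to 15 synthetases were called.

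The promoters of these genes were searched for the 8-base pattern TGATGNAA, on both strands, which is the composite site that ATF4 and C/EBP proteins bind. In RefSeq promoters of GRCh38.p14, from 250 bases before to 50 after a start, 4.46% of 27305 genes held it, as did 3.04% of the tested genes with a promoter in the table. It was present in 49 of 765 risen genes (6.41%), in 19 of 1038 fallen genes (1.83%), in 8 of 27 called ATF4-list members (29.6%) and in 7 of 10 called synthetases (70.0%). A match is a description of letters, not evidence of binding. The 6 matches in members with the largest changes, 21 bases either side and on the gene's own strand, are shown with the pattern in capitals, which reads TTNCATCA where the match is on the opposite strand.
CHAC1, chr15:40953241-40953290, plus strand: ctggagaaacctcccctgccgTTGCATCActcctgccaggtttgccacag
ASNS, chr7:97872448-97872497, minus strand: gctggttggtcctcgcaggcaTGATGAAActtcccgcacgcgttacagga
CEBPG, chr19:33374050-33374099, plus strand: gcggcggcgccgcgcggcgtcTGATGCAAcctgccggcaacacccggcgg
JDP2, chr14:75427985-75428034, plus strand: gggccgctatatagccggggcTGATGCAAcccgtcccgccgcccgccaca
SLC1A5, chr19:46784883-46784932, minus strand: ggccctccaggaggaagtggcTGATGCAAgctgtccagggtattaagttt
MARS1, chr12:57488043-57488092, plus strand: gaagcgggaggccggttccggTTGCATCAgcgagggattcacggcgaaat
Read on the strand of the match, 5 of the 6 had C at the free position, and ASNS had A.

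Of 23 members of the unfolded protein response of the endoplasmic reticulum, 8 rose, 0 fell and 15 did not pass (median 0.17). Those that rose included the degradation factor HERPUD1 (0.78, SE 0.13), the transcription factors XBP1 (0.77, SE 0.11) and ATF6 (0.63, SE 0.09), and the chaperone HYOU1 (0.71, SE 0.09). Of 19 heat shock chaperones, 10 fell and 1 rose (median -0.35). HSP90AA1 went from 45176 and 41101 to 32372 and 29500 normalised reads (log2 -0.48, SE 0.06, adjusted p = 3.66e-05), and HSPA8, HSPH1 and DNAJA1 fell by 0.51, 0.53 and 0.55. The member that rose was HSPA9, the mitochondrial Hsp70 (0.55, SE 0.07), and LONP1, a mitochondrial protease, rose by 0.99 (SE 0.10). Called heat shock members numbered 6 without combination replicate 2 and 6 without vehicle replicate 1, and called unfolded protein response members 5 without combination replicate 2.

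Genes of cholesterol synthesis fell almost throughout. Of 24 SREBP2 targets tested, 20 fell and 0 rose, with a median of -0.82, and 17 to 21 were called over the alternatives. HMGCS1, which makes the precursor of mevalonate, had 1384 and 1511 normalised reads with vehicle and 396 and 375 with the combination. Its groups lay far apart, a 3.75-fold difference (log2 -1.90, SE 0.09, adjusted p = 1.03e-10). INSIG1, the sterol sensor that holds SREBP2 in the endoplasmic reticulum and is itself an SREBP target, fell from 959 and 1239 to 145 and 192 normalised reads (log2 -2.69, SE 0.21, adjusted p = 7.67e-07). The isomerase gene IDI1 fell by 1.76 (SE 0.16) and the epoxidase gene SQLE by 1.07 (SE 0.14), and FDFT1 was 2.31-fold lower (adjusted p = 3.26e-07).

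In fatty acid synthesis, 7 of 20 members fell and 0 rose (median -0.30). The stearoyl-CoA desaturase gene SCD had 9216 and 11537 normalised reads with vehicle and 3509 and 3327 with the combination (log2 -1.59, SE 0.19, adjusted p = 0.000549). The acyl-CoA synthetase ACSL3 fell by 0.90 (SE 0.10) and the SREBP1 gene SREBF1 by 0.77 (SE 0.10). Without combination replicate 2, 4 members of this list were called. ABCA1, the exporter of cholesterol and a target of LXR receptors, fell with the synthesis genes, from 1308 and 1357 to 399 and 358 normalised reads (log2 -1.81, SE 0.28, adjusted p = 0.000549).

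**Figure D2:**
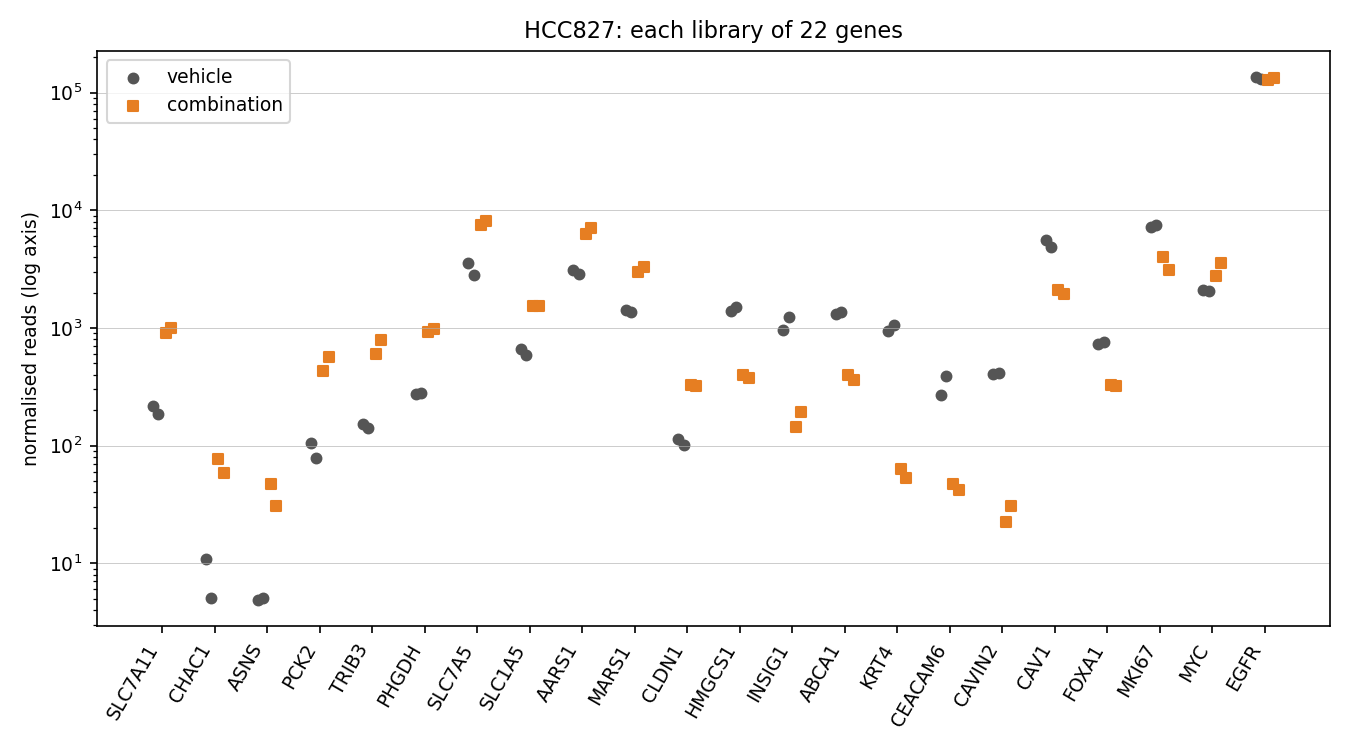
Normalised reads (vertical log axis) of 22 genes in each HCC827 library, with vehicle as grey circles and the combination as orange squares. In each gene but EGFR the 2 treatments do not overlap, with SLC7A11 to CLDN1 and MYC higher and HMGCS1 to MKI67 lower with the combination.

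Of 40 genes of G2/M and mitosis 36 fell (median -0.84), of 44 genes of G1/S and DNA replication 32 fell (median -0.57) and of 29 replication-dependent histones 18 fell (median -0.80), and 0 rose in any of the 3 lists. MKI67, a proliferation marker, had 7265 and 7443 normalised reads with vehicle and 4035 and 3115 with the combination (log2 -1.05, SE 0.13, adjusted p = 0.000152). The mitotic kinesin KIF20A fell by 1.68 (SE 0.15), the mitotic kinase AURKA by 1.06 (SE 0.16), the repressor E2F8 by 1.15 (SE 0.18), the ribonucleotide reductase subunit RRM2 by 0.99 (SE 0.09) and the replication factor GINS2 by 1.09 (SE 0.16). H2BC17, a histone gene whose near-identical copies can share reads, fell by 1.21 (SE 0.14). Without combination replicate 2, 28 mitotic, 21 replication and 8 histone genes were called, and without vehicle replicate 1 10 histone genes were.

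Among cyclin-dependent kinase regulators, CDKN1A, a target of p53, rose from 25.4 and 26.3 to 97.6 and 84.8 normalised reads (log2 1.71, SE 0.20, adjusted p = 1.16e-05). Of 23 p53 targets tested, 5 rose, 1 fell and 17 did not pass (median 0.13), beside 4.42% risen and 5.5% fallen over all genes. CDKN2C, an inhibitor of CDK4 and CDK6, fell from 182 and 211 to 68.2 and 53.5 normalised reads (log2 -1.65, SE 0.23, adjusted p = 7.32e-05). CCND1, cyclin D1, had 9365 and 9368 with vehicle and 10184 and 9380 with the combination (log2 0.06, SE 0.08, adjusted p = 0.719). Of 16 BCL2 family genes 3 rose and 0 fell (median 0.38, and 2 to 5 called with 1 library left out). The antiapoptotic BCL2L2 rose by 0.73 (SE 0.13, adjusted p = 0.001). The proapoptotic HRK changed by 1.68 (SE 0.38, adjusted p = 0.00632), but not without vehicle replicate 1 (adjusted p = 0.0504) or combination replicate 2 (adjusted p = 0.0622). BBC3, the proapoptotic member PUMA, rose by 1.45 (SE 0.25, adjusted p = 0.000759), and its adjusted p was 0.0517 in a fit of the 4 HCC827 libraries alone.

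Other patterns were searched in these promoters on both strands. The sterol response element core TCACNCCA was in 4.18% of risen, 4.14% of fallen and 4.61% of tested genes with a promoter. For the E-box CACGTG the shares were 14.2%, 12.3% and 11.7%, and for the MEF2 core TAAAAATA 1.96%, 1.45% and 1.82%. The sterol core was in 3 of 14 called cholesterol genes. The E-box was in 5 of 8 called MYC-driven genes with a promoter and in 16 of the 39 tested and not called (41.0%). The MEF2 core was in 3 of 4 called class IIa readouts and in 2 of the 11 tested and not called (18.2%). The E2F pattern TTTNGCGC was searched likewise. It was present in 2.17% of all 27305 genes with a promoter, in 3.31% of the tested genes with a promoter, in 60 of 1038 fallen genes (5.78%), in 20 of 765 risen genes (2.61%) and in 12 of the 25 called G1/S genes with a promoter (48.0%). Of the 11 G1/S genes tested and not called, 4 held it too (36.4%). The strongest falls among those without a lost call were UHRF1 (log2 -0.67, SE 0.09) and POLA1 (log2 -0.63, SE 0.08), which encode a DNA methylation maintenance factor and the catalytic subunit of DNA polymerase alpha, and their matches are shown in capitals. The POLA1 match lies on the opposite strand and reads GCGCNAAA.
UHRF1, chr19:4909963-4910012, plus strand: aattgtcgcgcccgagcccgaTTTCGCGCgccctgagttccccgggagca
POLA1, chrX:24693760-24693809, plus strand: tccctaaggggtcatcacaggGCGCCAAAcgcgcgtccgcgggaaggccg

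The genes of the drug targets were measured too. MYC mRNA was higher with the combination, at 2092 and 2068 normalised reads with vehicle and 2773 and 3566 with the combination (log2 0.60, SE 0.11, adjusted p = 0.00164). That call ended without combination replicate 2 (adjusted p = 0.065) and in a fit of the HCC827 libraries alone (adjusted p = 0.0527). Of 57 genes that MYC is known to drive, mostly of ribosome biogenesis, 9 rose and 1, the glycolysis gene LDHA, fell (median 0.12). Of 70 cytosolic ribosomal protein genes 19 rose while 0 fell (median 0.20). With neither trend nor robust settings of limma, 0 of these 70 and 1 of the 57 MYC-driven genes were called. Under quantile normalisation 29 and 14 were called. Called members of these 2 lists numbered 1 and 3 without combination replicate 2, 4 and 9 without vehicle replicate 1, and 1 and 7 without vehicle replicate 2. HDAC5 rose by 0.65 (SE 0.12, adjusted p = 0.000993) and HDAC9 by 0.89 (SE 0.26, adjusted p = 0.0357), and leaving out any 1 of the 4 libraries ended the HDAC9 call (adjusted p = 0.111 to 0.207), as did centring each library on its median (adjusted p = 0.0501). HDAC4 (0.18, SE 0.12) and HDAC7 (-0.01, SE 0.13) did not pass. Among 19 readouts of class IIa deacetylase activity, MEF2 targets included, 5 rose and 0 fell (median 0.44). They were HDAC5 and HDAC9 themselves, MEF2A, KLF4 (1.16, SE 0.20) and MEF2C (0.97, SE 0.13, adjusted p = 7.57e-05), which had 161 and 164 normalised reads with vehicle and 306 and 339 with the combination.

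The list counts of this paragraph stand beside 4.42% risen and 5.5% fallen over all genes tested. Of 23 glycolysis genes 8 fell and 1 rose (median -0.30). LDHA stood at 13210 and 10852 normalised reads with vehicle and 7618 and 6650 with the combination (log2 -0.75, SE 0.08, adjusted p = 5e-06), and PGAM1 fell by 0.77 (SE 0.10). Called glycolysis genes numbered 6 without combination replicate 2. Of 37 nuclear-encoded subunits of respiratory complex I, 2 rose and 2 fell (median -0.04, from -0.12 to 0.03 over the alternatives), with 1 called without vehicle replicate 1, 1 without vehicle replicate 2 and 0 in a fit of the HCC827 libraries alone. For complexes II to V, 10 of 38 subunits fell (median -0.31), but 1 was called without combination replicate 2, 5 without vehicle replicate 1 and 4 without vehicle replicate 2. Of the 13 mRNAs of the mitochondrial genome 2 fell (median -0.28), and 0 of the 13 had a positive change. None was called under quantile normalisation, on recovered reads or with neither trend nor robust settings, while 7 were called with the replicate number as a block. Of 20 hypoxia response genes, 4 rose and 3 fell (median 0.12), and 2 were called without combination replicate 2 or without vehicle replicate 1. NDUFA4L2, outside that list and a paralogue of a respiratory subunit known as a hypoxia-induced gene, rose from 9.69 and 15.2 to 96.5 and 119 normalised reads (log2 2.89, SE 0.29, adjusted p = 1.9e-06). VEGFA, a member of the hypoxia list that codes for the angiogenic growth factor, rose by 1.16 (SE 0.10).

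HCC827 depends on mutant EGFR, so its signalling genes were examined, beside 4.42% risen and 5.5% fallen over all genes tested. EGFR had 136024 and 131565 normalised reads with vehicle and 128272 and 131903 with the combination, and the groups overlapped (log2 -0.04, SE 0.06, adjusted p = 0.771). Of 20 receptor kinase genes 0 rose and 0 fell with limma, while 1 was called on recovered reads (limma voom). An unadjusted limma p under 0.05 was found for 4 of the 20, beside 5339 of all 23968 genes tested. Among 15 ligands and negative regulators, the ERBB3 ligand NRG1 fell from 934 and 905 to 493 and 401 normalised reads (log2 -1.04, SE 0.18, adjusted p = 0.000593) and SOCS3 fell by 0.77 (SE 0.13). Of 17 genes of ERK output and feedback 4 rose and 1 fell (median 0.03), and 1 or 2 were called when any single library was left out. DUSP5, a phosphatase of ERK, changed by 1.23 (SE 0.33, adjusted p = 0.0376), a call lost without any 1 of the 4 libraries (adjusted p = 0.131 to 0.156). SPRY4 had 86.0 and 80.0 normalised reads with vehicle and 125 and 91.3 with the combination (log2 0.35, SE 0.14, adjusted p = 0.133, and 0.0389 without combination replicate 2). DUSP6 stood at 143 and 185 against 164 and 109.7, with overlapping groups (log2 -0.28, SE 0.47).

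Of 12 keratins tested, 2 fell, KRT4 and KRT8, and 0 rose, beside 5.5% fallen and 4.42% risen over all genes tested. The keratin median was 0.02, from -0.17 to 0.04 over the alternatives. KRT4, a keratin of wet stratified epithelia (chromosome 12, 52806549 to 52814551), went from 936 and 1061 to 63.5 and 52.6 normalised reads, a 17.2-fold difference (log2 -4.04, SE 0.28, adjusted p = 1.91e-08). CEACAM6, a cell surface adhesion gene, fell from 268 and 389 to 47.1 and 41.5 (log2 -2.79, SE 0.31, adjusted p = 5.99e-06), and PLEKHS1 fell by 3.07 (SE 0.55). The placental alkaline phosphatase ALPP and its near-identical neighbour ALPG, which can share reads, fell by 2.71 (SE 0.43) and 3.39 (SE 0.44). LMO3, a transcription cofactor, fell by 2.02 (SE 0.39, adjusted p = 0.00182). In alveolar lineage genes, 4 of 15 fell and 1 rose (median -0.60, and 3 called without combination replicate 2, vehicle replicate 1 or vehicle replicate 2). The pioneer factor FOXA1 had 727 and 753 normalised reads with vehicle and 325 and 322 with the combination (log2 -1.19, SE 0.14, adjusted p = 8.85e-06). The surfactant gene SFTPB changed by -2.17 (SE 0.63, adjusted p = 0.0328) at no more than 37.5 normalised reads, and leaving out any 1 of the 4 libraries ended that call (adjusted p = 0.0601 to 0.241). The lung lineage factor NKX2-1 went from 1022 and 951 to 482 and 403, with no overlap, but did not pass in the fit shared with the other lines (log2 -1.16, SE 0.46, adjusted p = 0.133). H460 and H1703 had at most 2.28 and 5.84 normalised reads of it. It passed on recovered reads (adjusted p = 1.31e-08) and in a fit of the HCC827 libraries alone (adjusted p = 0.0116).

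The simple epithelial keratin KRT8 fell by 0.57 (SE 0.09, adjusted p = 0.000319) and the epithelial factor KLF5 by 0.78 (SE 0.14, adjusted p = 0.00121). KRT7 had 16612 and 15370 normalised reads with vehicle and 17223 and 19463 with the combination, and KRT19 had 6343 and 6663 against 5375 and 5176. Neither passed in the shared fit (adjusted p = 0.588 and 0.751), though on recovered reads both did, KRT7 as higher (adjusted p = 0.00484) and KRT19 as lower (adjusted p = 0.000881). The tight junction gene CLDN1 rose from 113 and 100.3 to 329 and 319 normalised reads (log2 1.58, SE 0.19, adjusted p = 1.23e-05). LAMB3, which encodes a laminin chain of the basement membrane, rose by 1.22 (SE 0.23), and ITGA3, the alpha chain of a laminin receptor, by 1.05 (SE 0.08). LAMB3 stood at 1064 and 937 normalised reads with vehicle and 2302 and 2366 with the combination.

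Immune genes were called in both directions, beside 9.92% of all genes tested. Of 27 interferon-stimulated genes 1 rose and 1 fell (median -0.17). Of 28 NF-kB targets, cytokines and chemokines 5 rose and 1 fell (median 0.22, and 3 called without vehicle replicate 1), and of 15 checkpoint ligands and surface immune genes 3 rose and 1 fell (median -0.10). Of the latter, 1 was called without combination replicate 2, 2 without vehicle replicate 1 and 1 without vehicle replicate 2. HLA-B rose from 8.48 and 13.2 to 35.3 and 45.2 normalised reads (log2 1.69, SE 0.28, adjusted p = 0.000513). Of 17 class I presentation genes 2 rose and 0 fell, and reads of HLA genes can be shared or lost between near-identical copies. IL23A, a cytokine subunit on the NF-kB list, rose by 2.04 (SE 0.37), and the cytokine receptor chain IL20RB, on no list, by 1.69 (SE 0.30). In 30 lysosome and autophagy genes, 8 rose and 1 fell (median 0.13), led by the protease CTSL (1.31, SE 0.14, adjusted p = 5.27e-06), and 3 were called without combination replicate 2.

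Other genes with the largest changes belonged to no list. PAPPA2, a protease that frees insulin-like growth factors from their binding proteins, rose from 15.8 and 32.4 to 256 and 381 normalised reads (log2 3.63, SE 0.30, adjusted p = 1.37e-07). The neuropeptide precursor VGF rose by 2.55 (SE 0.29), the kinesin KIF21B by 2.19 (SE 0.28) and BEX2 by 2.11 (SE 0.29). The lymphoid factor IKZF3 changed by 2.12 (SE 0.54, adjusted p = 0.0142), but leaving out any 1 of the 4 libraries ended its call (adjusted p = 0.0617 to 0.11). Among the falls, the pseudogene NCAPD2P1, which can take reads of its parent gene, fell by 3.71 (SE 0.70, adjusted p = 0.00156). DIO2, which activates thyroid hormone, changed by -2.69 (SE 0.54), and was not called on recovered reads (adjusted p = 0.476). The exchange factor VAV3 changed by -2.38 (SE 0.57) and had adjusted p = 0.0759, 0.0723 and 0.102 without vehicle replicate 1, vehicle replicate 2 and combination replicate 2. LPAR1, a receptor for lysophosphatidic acid, and ZNF488 changed by -1.95 (SE 0.58) and -1.92 (SE 0.55), and leaving out any 1 library ended both calls (adjusted p = 0.0827 to 0.237 and 0.0915 to 0.173).

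**Figure D3:**
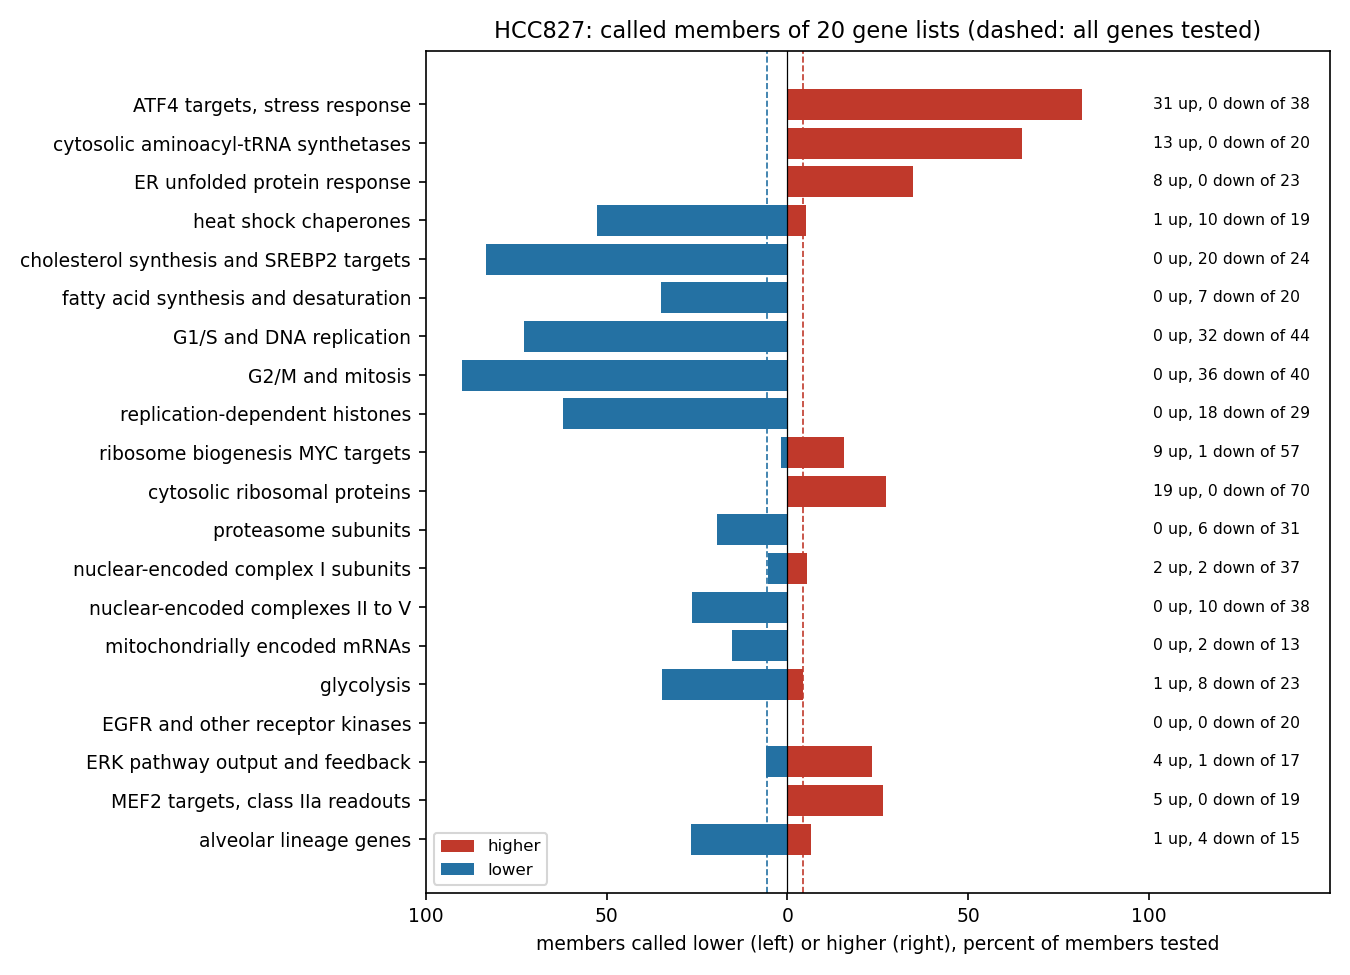
Share of the tested members of 20 gene lists called higher (red, right) or lower (blue, left) in HCC827, in percent, with dashed lines at the shares over all genes tested (4.42% higher, 5.5% lower). The ATF4 list has 31 of 38 members higher and the mitosis list 36 of 40 lower, while 0 of 20 receptor kinases were called.

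The change in HCC827 was compared with the mean change of H460, H1703 and H441 by a contrast in the same fit. It differed in 2286 genes (9.54%), with 1225 more positive in HCC827 (5.11%) and 1061 more negative (4.43%). The split of 53.6% more positive moved to 72.6% (1800 and 680 genes) when each library was centred on its median, which shifted the median difference from -0.02 to 0.09, and to 37.8% (477 and 785 genes) with H1703 left out of the mean. Of the 2378 genes called in HCC827, 785 were also called in this contrast. In 570 of them HCC827 changed more than the mean of the other lines in the same direction as its own change (255 risen, 315 fallen), and in 215 it changed less or oppositely. A difference from the mean does not show a difference from each line. A gene with few or no reads in a line can hardly fall there. The levels of most genes in the other lines, CAVIN2 among them, are not reported here.

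SLC7A11 was among the genes that rose further in HCC827. Its change was 0.13 in H460, -0.58 in H1703 and 0.75 in H441, so that HCC827 exceeded their mean by 2.13 (SE 0.11, adjusted p = 6.05e-10). The antisense gene SLC7A11-AS1 rose by 2.30 (SE 0.13) and exceeded it by 2.15 (SE 0.14), but the sources used here do not say how strand entered the counting, so its reads and those of SLC7A11 cannot be told apart where they overlap. SLC1A5 and SLC7A5 exceeded the mean of the other lines by 1.26 (SE 0.10) and 1.01 (SE 0.12), PHGDH and PSAT1 by 1.39 (SE 0.26) and 1.17 (SE 0.12), and CEBPB by 0.98 (SE 0.13). In H1703 these 5 changed by -0.64, -0.55, -0.79, -0.83 and 0.55. In the ATF4 list 14 members were called more positive in HCC827 than in the mean of the other lines and 2 more negative, the latter being ATF3 (-1.41, SE 0.19) and PPP1R15A (-1.15, SE 0.23). The list's median change was 1.64 in H460, 0.48 in H1703 and 0.61 in H441. Of the synthetases 10 were more positive and 0 more negative.

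**Figure D4:**
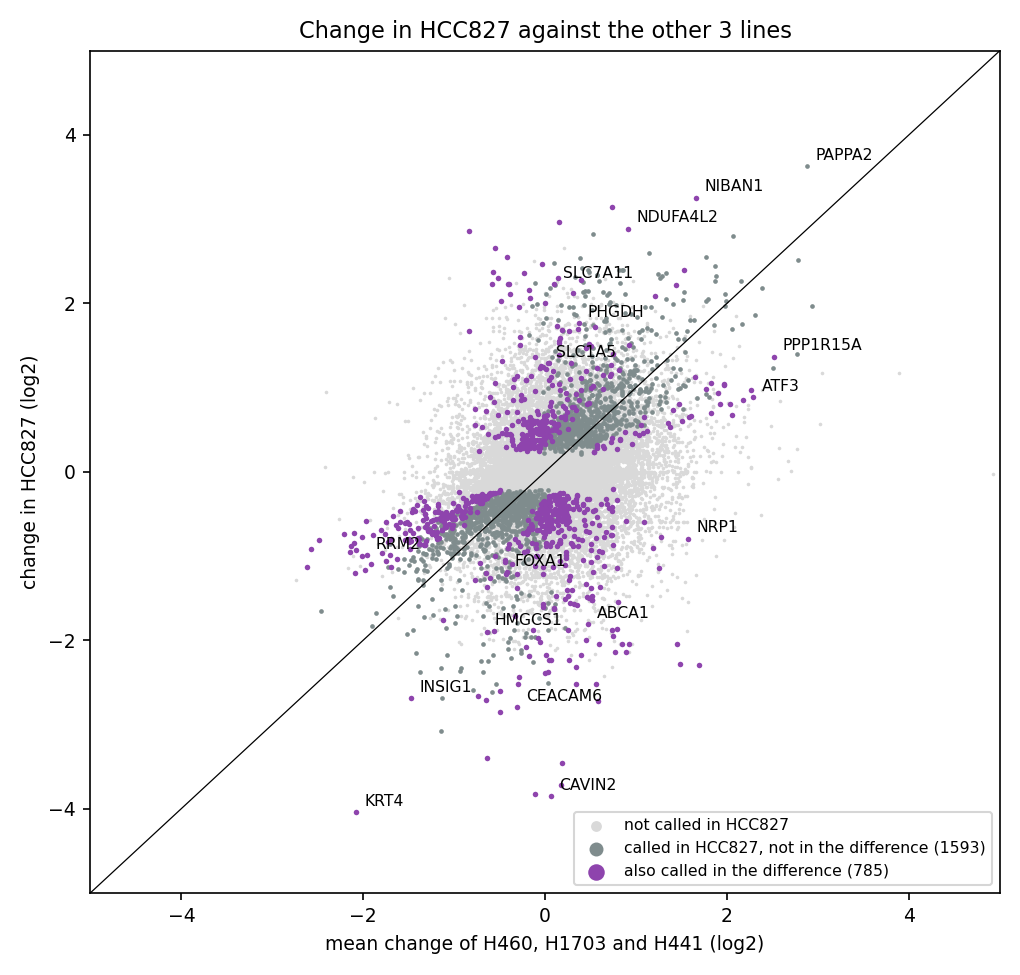
Change in HCC827 (vertical axis, log2) against the mean change of H460, H1703 and H441 (horizontal axis, log2) for each gene tested, with 785 genes called in both HCC827 and the difference in purple, 1593 called in HCC827 only in dark grey and the line of equal change in black. SLC7A11 and NDUFA4L2 lie above the line and CAVIN2, CEACAM6, ABCA1 and NRP1 below it.

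NDUFA4L2 was above the mean of the other lines by 1.98 (SE 0.34, adjusted p = 0.000714) but not above H460, with 2.89 in HCC827, 2.92 in H460, -0.55 in H1703 and 0.36 in H441. CLDN1 exceeded that mean by 1.42 (SE 0.21), IL20RB by 1.51 (SE 0.35) and MEF2C by 0.80 (SE 0.16). OTOGL changed by 2.03 (SE 0.44) and exceeded that mean by 2.51 (SE 0.51), but its change was not called without vehicle replicate 2 (adjusted p = 0.0509) or combination replicate 1 (adjusted p = 0.0611).

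Among genes more negative in HCC827, CAVIN2, a coat protein of caveolae (chromosome 2, 191834302 to 191847255), had one of the largest differences. It had 409.6 and 415 normalised reads with vehicle and 22.4 and 30.4 with the combination (log2 -3.85, SE 0.19, adjusted p = 2.16e-10), while it changed by 0.46 in H460, 0.00 in H1703 and -0.26 in H441, a difference of -3.91 (SE 0.22, adjusted p = 3.25e-09). NRP1, a coreceptor for semaphorins and VEGF, fell by 0.79 (SE 0.14) in HCC827 and changed by 4.16 in H460 and 0.77 in H1703 (difference -2.36, SE 0.16). ABCA1 changed by 2.71 in H1703 and -1.23 in H460 (difference -2.28, SE 0.33). NRG1 and KLF5 differed by -1.46 (SE 0.20) and -1.35 (SE 0.17), and changed by 1.29 and 1.39 in H460. HMGCS1 and INSIG1 differed from the mean by -1.26 (SE 0.10) and -1.21 (SE 0.25), while in H460 they changed by -1.85 and -3.04 against -1.90 and -2.69 in HCC827. The cyclin gene CCNA1 fell by 2.29 (SE 0.54, adjusted p = 0.00903) and differed by -3.77 (SE 0.62), with 3.08 in H460, but its fall was not called without vehicle replicate 1 (adjusted p = 0.131), combination replicate 1 (adjusted p = 0.0632) or combination replicate 2 (adjusted p = 0.052).

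The list medians of cell division genes were negative in all 4 lines. G1/S genes had medians of -1.94 in H460, -1.72 in H1703 and -0.15 in H441 against -0.57 in HCC827, and 34 of 44 were called less negative in HCC827 than in the mean of the others. For G2/M genes the medians were -1.74, -1.88 and -0.15 against -0.84, and 15 of 40 were called less negative. RRM2 changed by -2.34 in H460, -3.31 in H1703 and -0.21 in H441, a difference of 0.97 (SE 0.11, adjusted p = 9.19e-06). Heat shock chaperones had medians of -0.93, -1.12 and -0.17 against -0.35, with 11 of 19 called less negative, HSP90AA1 by 0.70 (SE 0.07). Cholesterol genes had medians of -1.17 in H460, -0.83 in H1703 and -0.04 in H441, against -0.82 in HCC827, with 8 of 24 called more negative and 4 less negative in HCC827.

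ERK output genes had medians of 0.97, 0.72 and 0.49 in H460, H1703 and H441 against 0.03 in HCC827, and 7 of 17 were called more negative in HCC827. SPRY4 changed by 1.06, 2.11 and 1.24 in those lines (difference -1.12, SE 0.16, adjusted p = 0.000162), and CCND1 differed by -0.46 (SE 0.09). Among EGFR ligands and negative regulators 8 of 15 were called more negative. The nuclear RNA MALAT1 changed by 0.69 (SE 0.14, adjusted p = 0.0106) in HCC827 and by 2.97 in H460 and 2.06 in H1703, a difference of -1.13 (SE 0.16). Its call in HCC827 ended under quantile normalisation (log2 0.25, adjusted p = 0.374) and without vehicle replicate 1 (adjusted p = 0.0581), combination replicate 1 (adjusted p = 0.0598) or combination replicate 2 (adjusted p = 0.0615).

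**Figure D5:**
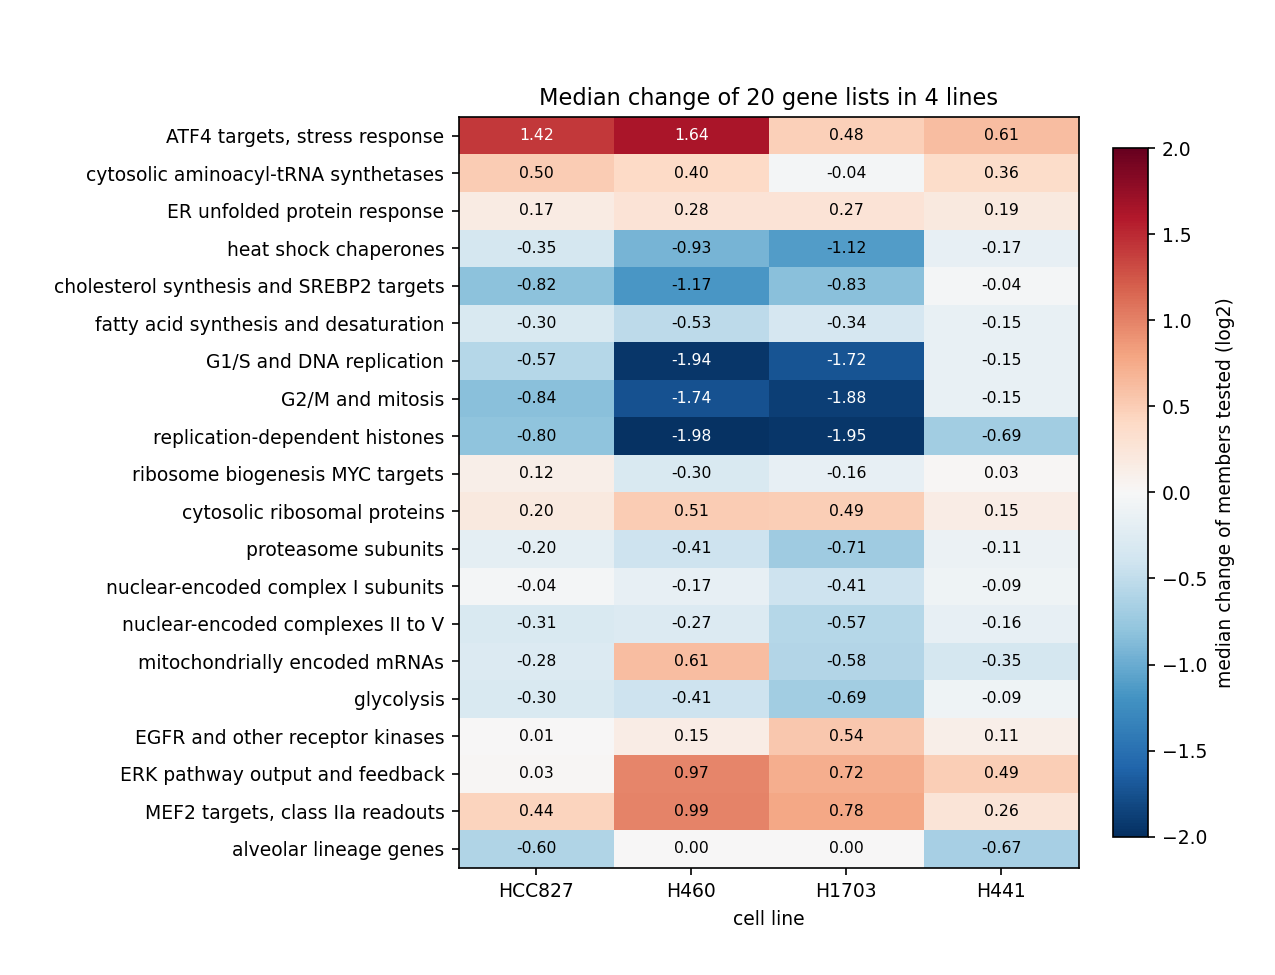
Median change (log2, colour and printed value) of the tested members of 20 gene lists (rows) in the 4 lines (columns), red higher and blue lower with the combination. For the mitosis list the value is -0.84 in HCC827, between -0.15 in H441 and -1.74 and -1.88 in H460 and H1703.

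Calls shared with each other line were counted by direction. The lines have separate libraries, but all calls came from the same limma fit, in which the lines share the variance of each gene. Calls in different lines are therefore not independent, and the part of the shared variance in these overlaps was not tested. Of the 1060 risen genes 542 also rose in H460 (51.1%, and 16.1% of the genes that rose there), 531 in H1703 (50.1%, and 12.4%) and 239 in H441 (22.5%, and 35.9%). Of the 1318 fallen genes 729 also fell in H460 (55.3%, and 24.1%), 850 in H1703 (64.5%, and 20.2%) and 148 in H441 (11.2%, and 33.3%). Over all genes tested, 14.1% rose and 12.6% fell in H460, 17.9% and 17.6% in H1703 and 2.77% and 1.86% in H441. In no other line were 641 of the 2378 called with the same sign.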

How the data were processed

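RNA was measured in 16 libraries of 4 lines, 4 of them HCC827. Per the submitters' processing notes, the authors used Trimmomatic, STAR and featureCounts with hg38 (GRCh38). Their versions, the annotation release and the counting strand are not given in the sources used here. For 28951 genes the authors deposited log2 values from a variance-stabilising transformation. Inverted, 100% of the values came out as whole reads, to within 0.02. The 16 libraries held 8493271 to 13604150 reads, which limits precision for genes of few reads.

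Genes with a mean at least 1 above the lowest value were tested (23968, with 4983 removed). A single limma fit (limma 3.58.1, R 4.3.3, trend and robust) of 8 group means over all 16 libraries gave each line's change and HCC827 minus the mean of the other 3 lines. Adjusted p is Benjamini-Hochberg over all genes tested, with a threshold of 0.05. Same-numbered libraries did not deviate together (correlation of deviations 0.027 in HCC827), so replicate numbers were not used as pairs. The labels do not say whether same-numbered libraries were handled together. No set test was used. Python 3.11.15 with pandas 2.3.3 and numpy 2.4.6 made the tables and motif search, matplotlib 3.10.9 the figures, and positions came from GENCODE 29. The fit was also run on simulated data in which only HCC827 changed, which does not cover changes in the other lines. Its outcome is not reported here.

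Members and the 47 gene lists were chosen with earlier results of these data known. Named genes were the 15 largest called rises and 15 falls with non-overlapping libraries and at least 50 normalised reads in the higher group, the 5 most abundant each way with a change of at least 1, the 8 largest differences each way from the other lines, up to 4 called members per list, and MYC, EGFR and the class IIa deacetylases. Alternatives were 2 other normalisations, 2 other filters, other variance settings, the replicate block, HCC827 libraries alone, limma voom on recovered reads, H1703 left out of the mean, and each HCC827 library left out. Not every gene that the rule takes is described, and some are not reported here. Outside the rule, and chosen after their values were seen, were ALDH18A1, ALDH1L2, ATF4, CARS1, CAV2, CAVIN1, CAVIN3, CCND1, CD24, CEBPB, CEBPG, DDIT3, DDIT4, DUSP6, E2F2, FDFT1, GARS1, HSP90AA1, JDP2, KRT19, KRT7, LAMB3, LPCAT1, MTHFD2, NKX2-1, PHGDH, POLA1, POLE2, PPP1R15A, PSAT1, PSPH, RRM2, S100A10, SHMT2, SLC1A4, SLC1A5, SLC38A1, SLC38A2, SLC3A2, SLC7A1, SPRY4, SQLE and UHRF1.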

Additional observations from a re-analysis of the deposited data

Results flagged for a closer look

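Of the 135 genes the text names, 77 had a change in HCC827 that differed from the mean change of H460, H1703 and H441 (limma, Benjamini-Hochberg adjusted p under 0.05 over all 23968 genes tested). Over all genes tested, 9.54% did so, and the named genes were partly chosen by this contrast, so their share is a description. The values are HCC827 minus the mean of the other lines, in log2.

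Genes that rose in HCC827 and were more positive there than in that mean were OTOGL 2.51, SLC7A11-AS1 2.15, SLC7A11 2.13, NDUFA4L2 1.98, NIBAN1 1.59, IL20RB 1.51, CLDN1 1.42, PHGDH 1.39, SLC1A5 1.26, PSAT1 1.17, JDP2 1.01, SLC7A5 1.01, CEBPB 0.98, PCK2 0.87, MEF2C 0.80, TRIB3 0.77, XPOT 0.71, SLC1A4 0.65, CEBPG 0.58, WARS1 0.53, MARS1 0.51, SHMT2 0.50, LONP1 0.49, HYOU1 0.47, SLC38A1 0.47, VEGFA 0.43, AARS1 0.42, SARS1 0.40 and MTHFD2 0.35.

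Genes that fell in HCC827 and were more negative there than in that mean were CAVIN2 -3.91, NCAPD2P1 -3.89, CCNA1 -3.77, ALPG -2.75, LPAR1 -2.70, CEACAM6 -2.49, NRP1 -2.36, ABCA1 -2.28, ALPP -2.06, KRT4 -1.97, LMO3 -1.96, CAVIN3 -1.73, NRG1 -1.46, KLF5 -1.35, HMGCS1 -1.26, INSIG1 -1.21, SESN3 -1.07, FOXA1 -0.76, SOCS3 -0.76, CAV1 -0.73, IDI1 -0.64, CAV2 -0.63, SQLE -0.63, KRT8 -0.61, FDFT1 -0.55, CD24 -0.51, ACSL3 -0.49 and S100A10 -0.36.

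These 2 groups hold genes that changed as far or further in another single line. In H460 these were the 15 genes CEBPG, FDFT1, IDI1, INSIG1, JDP2, MARS1, MTHFD2, NDUFA4L2, NIBAN1, PCK2, SARS1, SHMT2, SLC1A4, VEGFA and WARS1, and in H1703 the 2 genes CAV1 and CD24.

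Genes that fell less in HCC827 than in the mean of the other lines, or did not pass in HCC827 and were more positive, were E2F2 1.14, RRM2 0.97, H2BC17 0.88, GINS2 0.82, UHRF1 0.73, HSP90AA1 0.70, DNAJA1 0.61, HDAC4 0.56, HSPA8 0.51, POLA1 0.39 and HSPH1 0.38. Genes that rose less, or did not pass in HCC827 and were more negative, were ATF3 -1.41, PPP1R15A -1.15, MALAT1 -1.13, SPRY4 -1.12, ITGA3 -0.77, NFIL3 -0.67, CCND1 -0.46, HDAC5 -0.43 and EGFR -0.27.

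The change of E2F2 in HCC827 itself (log2 -0.93, adjusted p = 0.0161) did not pass without vehicle replicate 1 (adjusted p = 0.0763), vehicle replicate 2 (adjusted p = 0.0987) or combination replicate 2 (adjusted p = 0.307).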

How the results depend on the processing

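The count of genes called in HCC827, 2378, stayed within 1.5 times under median centring, quantile normalisation, both other filters and limma voom on recovered reads. It was 1183 with neither trend nor robust settings, 1299 in a fit of the 4 HCC827 libraries alone, and 1013 to 1826 with 1 HCC827 library left out. The count of genes differing from the other lines, 2286, was 954 with neither trend nor robust settings, 1262 with H1703 left out of the mean, and 1199 to 1507 with 1 HCC827 library left out. With the replicate number as a block the counts were 2663 and 2522; same-numbered libraries did not deviate together (correlation 0.027), so the numbers were not treated as pairing. For the 135 genes named, 111 kept direction and side of the threshold for the HCC827 change in every alternative, and 65 did for the difference from the other lines. The LDHA difference, 0.13, was -0.36 (adjusted p = 0.038) with H1703 left out. Leaving out 1 library leaves a single library in that arm, assumed to vary like the other groups. The cause of these shifts was not tested. Depth limits genes of few reads, such as ASNS at 4.85 and 5.06 normalised reads with vehicle.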

Other observations

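The other coat genes of caveolae, small pits of the plasma membrane, were looked at after CAVIN2 had stood out, so they were chosen with their values known. CAV1 had 5538 and 4874 normalised reads with vehicle and 2103 and 1938 with the combination (log2 -1.36, SE 0.10, adjusted p = 2.25e-08). CAVIN1 fell from 3941 and 3254 to 2036 and 1877 (log2 -0.87, SE 0.09) and CAV2 from 3571 and 3251 to 2336 and 1893 (log2 -0.70, SE 0.12), with no overlap between treatments. The adjusted p of CAV2 was 0.0507 without the trend and robust settings. CAVIN3 changed by -1.51 (SE 0.45, adjusted p = 0.0389) at 18.4 to 78.0 normalised reads, and leaving out any 1 of the 4 HCC827 libraries ended its call (adjusted p = 0.0621 to 0.261). CAV1 differed from the mean of the other lines by -0.73 (SE 0.11) but fell by 1.39 in H1703 too, and changed by -0.40 in H460 and -0.11 in H441. CAV2 differed from that mean by -0.63 (SE 0.14), while for CAVIN1 the difference did not pass (-0.32, SE 0.10, adjusted p = 0.0604).

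Abundant genes outside the lists, also picked after their values were seen, included 3 membrane-linked genes that fell. LPCAT1, a lysophospholipid acyltransferase, went from 5182 and 5061 to 2217 and 1722 normalised reads (log2 -1.39, SE 0.11). CD24, a surface glycoprotein, went from 3948 and 4095 to 1832 and 1478 (log2 -1.29, SE 0.11), and S100A10, the partner of annexin A2, from 5537 and 4839 to 2610 and 2288 (log2 -1.08, SE 0.09). SESN3, a target of FOXO factors, fell by 1.39 (SE 0.14) while its relative SESN2 rose by 2.03, and NFIL3, a repressor of clock genes, rose by 0.74 (SE 0.13).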
